A study of Danio rerio with 8 samples.

Results

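The genes described here encode the neurotrophin Bdnf and the receptors of the neurotrophin family in zebrafish, measured by RNA sequencing of whole brains that lack prosaposin and of brains of wild-type siblings. The group was set by gene symbol, with earlier results of these data already known. It held *bdnf*, *ntf3*, the Trk receptor genes *ntrk2a*, *ntrk2b*, *ntrk3a* and *ntrk3b*, and the p75 receptor genes *ngfra* and *ngfrb*. Of these 8 symbols, 7 had a row among the 22871 genes of the count table, all 7 passed the filter on low counts that left 21140 genes, and *ntf3* was not analysed here. The *psap* KO group held 4 libraries from *psap* KO fish, homozygous for an insertion allele made with CRISPR-Cas9 that places a premature stop codon before the major saposin domains, and the WT group held 4 libraries from WT siblings. All fish were untreated, of the TuAB strain and aged 4 months post fertilization (mpf), when the study places *psap* KO fish at the end stage of disease. Each library pooled RNA from 3 brains, the study used male and female fish, and the allele descends from a single carrier fish, so the spread is that between pools of a single line.

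Neurotrophins are secreted growth factors that are made as precursors and cleaved to a mature form. Mature neurotrophins bind the Trk receptor tyrosine kinases, with Bdnf acting mainly on TrkB, which zebrafish encode as *ntrk2a* and *ntrk2b*, and neurotrophin 3 acting mainly on TrkC, encoded as *ntrk3a* and *ntrk3b*. The p75 receptor, encoded as *ngfra* and *ngfrb*, belongs to the tumor necrosis factor receptor superfamily, binds all mature neurotrophins, and binds their precursors together with sortilin family proteins. In the mammalian brain, Bdnf is made mostly by neurons, its transcription follows neuronal activity, and TrkB supports synapses and neuron survival. In mammals p75 is found on some neurons, on glia and on cells of vessels, and it often rises after injury.

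The libraries held 17562422 to 25127578 counts in *psap* KO brains (median 21120789) and 15332163 to 23480758 in WT brains (median 20476683). *psap* itself, the targeted gene, was at 412.5 ± 29.1 CPM (counts scaled to a fixed library total) in *psap* KO and 378 ± 30.5 CPM in WT brains (SD, n=4 each), a difference that did not pass the test (adjusted p = 0.206), and counts per gene do not show the allele. Pan-neuronal genes marked the tissue as brain, with *snap25a* at 1259 CPM in *psap* KO and 1877 CPM in WT brains. WT replicate 1 stood apart in skeletal muscle genes, whose summed level was 749.9 CPM there, against 23.4 to 46.0 CPM in *psap* KO brains and 71.2 to 90.2 CPM in WT replicates 2 to 4.

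The ligand and all 4 Trk receptor genes were lower in *psap* KO brains, and both p75 receptor genes were higher. Of the 7 genes tested, 5 fell and 2 rose at an adjusted p under 0.05 in edgeR's quasi-likelihood test, adjusted over all genes. Over all genes tested, 18.5% were lower and 22.3% were higher (40.8% in either direction), and the median log2 fold change was 0.02, against -0.41 for the 7 genes. The levels of the genotypes did not overlap for any of the 7, a pattern shared by 18.3% of all genes in the downward and 21.9% in the upward direction (40.3% in either). The fold changes spanned a range from *bdnf*, at 0.494 of its WT level, to *ngfrb*, at 2.03 times its WT level.

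**Figure D1:**
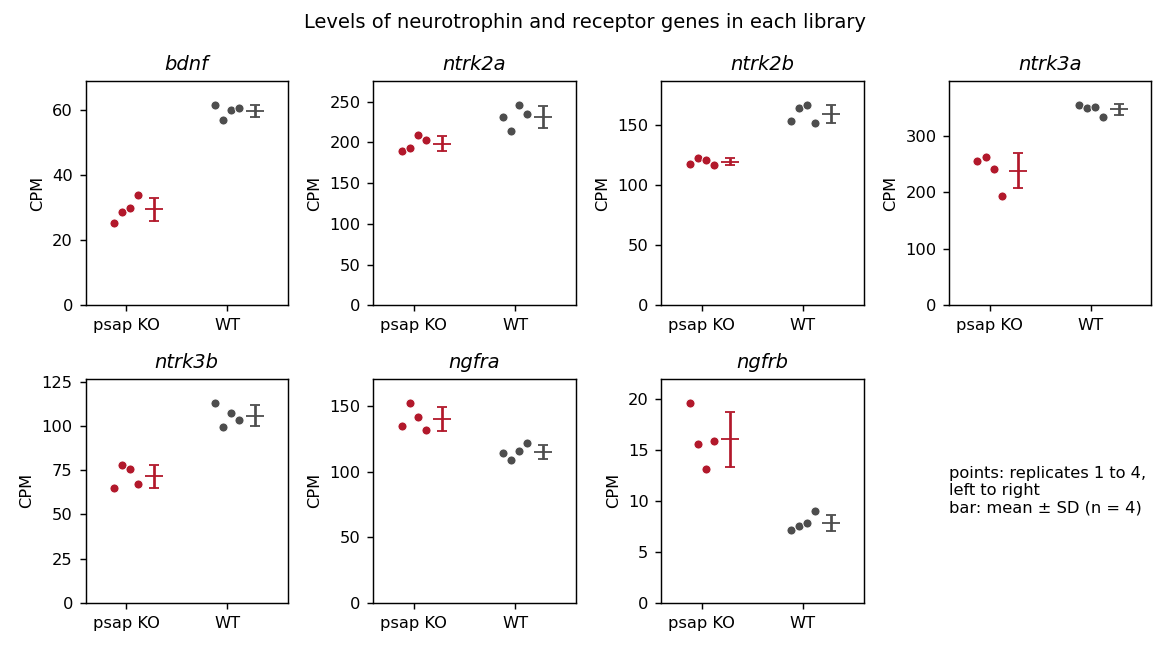
Level in CPM (linear axis from 0) of each gene in every library, *psap* KO left of WT; points are replicates 1 to 4 and bars are the mean ± SD. The *psap* KO points lie below all WT points for *bdnf* and the *ntrk* genes, and above them for *ngfra* and *ngfrb*.

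*bdnf*, which encodes the ligand, showed the largest fall of the group. It was at 25.5, 28.8, 29.9 and 33.9 CPM in *psap* KO replicates 1 to 4, against 61.6, 57.1, 60.1 and 60.6 CPM in WT replicates 1 to 4. The highest *psap* KO library stayed well below the lowest WT library, and the WT libraries lay close together while the *psap* KO libraries were more spread, with a coefficient of variation of 11.8% in *psap* KO and 3.23% in WT brains. On the log2 scale this fold change was -1.02 (SE 0.0864, adjusted p = 2.3e-06). Only 1.40% of all genes tested had a lower fold change. These levels rest on 457 to 886 raw counts per *psap* KO library and 846 to 1366 per WT library. In the authors' annotation table, whose genome build is not stated, the entry for *bdnf* (ENSDARG00000018817) is on chromosome 7, minus strand, start 31924983 and end 31941670, with 6 transcripts. The counts add up all transcripts, so transcripts from alternative first exons were not told apart.

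The TrkB genes *ntrk2a* and *ntrk2b* fell by smaller factors. *ntrk2b* (ENSDARG00000098511, chromosome 5, 55626693 to 55689656, plus strand) was at 117, 123, 121 and 117 CPM in *psap* KO replicates 1 to 4 and at 153.5, 164, 166.5 and 152 CPM in WT replicates 1 to 4. The *psap* KO libraries were nearly level with each other and all below WT, and the fold change on the log2 scale was -0.41 (SE 0.0592, adjusted p = 0.000145). *ntrk2a* (ENSDARG00000059897, chromosome 8, 49778486 to 49865375, plus strand) was at 189, 193.5, 208.5 and 203 CPM in *psap* KO replicates 1 to 4 and at 231, 213.5, 246 and 235 CPM in WT replicates 1 to 4. Here the groups nearly touched, at *psap* KO replicate 3 and WT replicate 2. The log2 fold change of *ntrk2a* was -0.22 (SE 0.0643, adjusted p = 0.0153), and without WT replicate 3 it was -0.19 with an adjusted p of 0.055, which no longer passed. An annotated ribosomal RNA gene overlaps *ntrk2b* on the same strand, with a mean of 10.8 counts per library, and another gene overlaps it on the other strand; the strand setting of the counting is not given in the sources used here.

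The TrkC genes *ntrk3a* and *ntrk3b* fell by similar factors. *ntrk3a* (ENSDARG00000077228, chromosome 25, 11795683 to 12203961, minus strand) was at 256, 262, 241.5 and 194 CPM in *psap* KO replicates 1 to 4 and at 355, 350.4, 352 and 333 CPM in WT replicates 1 to 4. *psap* KO replicate 4 was the lowest of all, while the WT libraries differed little. This was -0.54 as a log2 fold change (SE 0.0881, adjusted p = 0.000367), and -0.46 without *psap* KO replicate 4. *ntrk3b* (ENSDARG00000086214, chromosome 7, 14632157 to 14938580, plus strand) was at 65.1, 77.9, 75.8 and 66.9 CPM in *psap* KO replicates 1 to 4 and at 113, 99.1, 107 and 103 CPM in WT replicates 1 to 4. Its log2 fold change was -0.56 (SE 0.0759, adjusted p = 9.1e-05), and the library with the lowest *ntrk3a* was not the library with the lowest *ntrk3b*.

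The p75 receptor genes moved the other way. *ngfrb* (ENSDARG00000089223, chromosome 12, 9949941 to 10038870, minus strand) was at 19.6, 15.6, 13.1 and 15.8 CPM in *psap* KO replicates 1 to 4 and at 7.18, 7.49, 7.79 and 8.98 CPM in WT replicates 1 to 4. Every *psap* KO library was above every WT library, and *psap* KO replicate 1 was the highest. This was 1.02 as a log2 fold change (SE 0.132, adjusted p = 6.6e-05). *ngfrb* had the fewest counts of the group, 270 to 413 per *psap* KO library and 111 to 193 per WT library. *ngfra* (ENSDARG00000088708, chromosome 3, 20156956 to 20231781, plus strand) was at 135, 152, 142 and 131 CPM in *psap* KO replicates 1 to 4 and at 114, 109, 115.5 and 122 CPM in WT replicates 1 to 4. The groups were separate but close, and the fold change on the log2 scale was 0.28 (SE 0.0667, adjusted p = 0.0046).

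Ratios of counts within a library, in which library scaling cancels, were used to ask whether paralogs responded differently. Gene length stays in each ratio and cancels only in the difference between genotypes, so the ratios themselves do not compare levels. For *ngfra* to *ngfrb* the log2 ratio was 3.14 ± 0.287 in *psap* KO and 3.87 ± 0.0928 in WT brains (SD, n=4 each), lower by 0.73 (exact two-sided permutation test, p = 0.0286, adjusted p = 0.0381 over 4 ratios). *ngfrb* thus rose by a larger factor than *ngfra*, and the ratio was lower in 4 of 4 *psap* KO libraries than in any WT library. For *ntrk2a* to *ntrk2b* the log2 ratio was 0.73 ± 0.0712 in *psap* KO and 0.54 ± 0.113 in WT brains (SD, n=4 each), higher by 0.19 (exact permutation p = 0.0286, adjusted p = 0.0381). The fall was therefore smaller for *ntrk2a* than for *ntrk2b*, with *psap* KO libraries at 0.66 to 0.80 and WT libraries at 0.38 to 0.63. For *ntrk3a* to *ntrk3b* the log2 ratio was 1.73 ± 0.186 in *psap* KO and 1.72 ± 0.0735 in WT brains (SD, n=4 each), a difference of 0.01 (exact permutation p = 0.914, adjusted p = 0.914), well within the spread of the libraries. In *psap* KO brains that ratio ran from 1.53 in replicate 4 to 1.98 in replicate 1, wider than the 1.65 to 1.82 of WT brains. The ligand fell further than its receptor: the log2 ratio of *bdnf* to *ntrk2b* was -2.02 ± 0.178 in *psap* KO and -1.41 ± 0.105 in WT brains (SD, n=4 each), lower by 0.61 (exact permutation p = 0.0286, adjusted p = 0.0381). A p of 0.0286 is the smallest that 4 libraries against 4 allow. Without *psap* KO replicate 1, 3 or 4 or WT replicate 2, the directions of these 3 called ratios stayed. Their adjusted p in the exact permutation test was then 0.0571, or 0.0762 for *ntrk2a* to *ntrk2b*. The adjusted p of each ratio depends also on the p of the other ratios. The genotypes did not overlap in any of these 3 ratios, and they stay separate whichever library is left out.

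**Figure D2:**
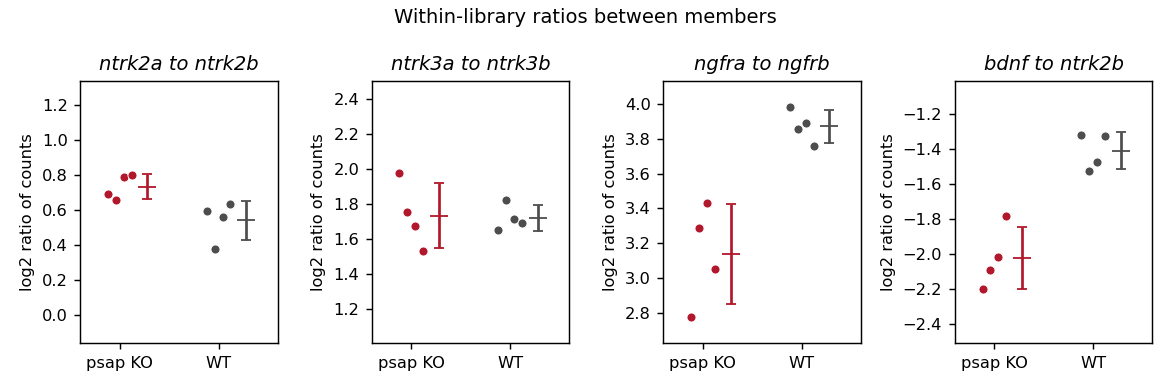
Log2 ratio of the counts of 2 genes within each library, *psap* KO left of WT; points are replicates 1 to 4, bars are the mean ± SD, and each axis spans the same number of log2 units. The groups are separate for *ntrk2a* to *ntrk2b*, *ngfra* to *ngfrb* and *bdnf* to *ntrk2b*, and overlap for *ntrk3a* to *ntrk3b*.

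Neuron markers fell in the same libraries. Of 27 pan-neuronal, glutamatergic and GABAergic marker genes, 21 were lower, 1 (*gap43*, a growth-cone protein) was higher and the median log2 fold change was -0.47. Among all genes tested, 18.5% were lower and 22.3% were higher. The summed level of the 16 pan-neuronal genes was 4222 to 4530 CPM in *psap* KO and 6099 to 6253 CPM in WT brains, that of the 5 glutamatergic genes 549 to 667 CPM in *psap* KO and 816 to 913 CPM in WT brains, and that of the 6 GABAergic genes 1368 to 1580 CPM in *psap* KO and 2319 to 2529 CPM in WT brains. In whole-brain RNA, fewer neurons and less RNA per neuron cannot be told apart. The *ntrk* genes lay inside the range of the markers, with 22 of the 27 at a lower log2 fold change than *ntrk2a*, 18 lower than *ntrk2b*, and 12 lower than *ntrk3a* and *ntrk3b* each. None of the 27 fell as far as *bdnf*, and the lowest, *gad2*, which encodes a GABA-synthesizing enzyme, had a log2 fold change of -0.91.

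Set against the mean log2 CPM of the 16 pan-neuronal genes in the same library, the group divided. *bdnf* was at -2.50 ± 0.245 in *psap* KO and at -1.95 ± 0.0522 in WT brains (SD, n=4 each), still lower in *psap* KO by 0.55 on the log2 scale and with no overlap of the libraries. *ntrk2b*, *ntrk3a* and *ntrk3b* differed between the genotypes by 0.06, -0.08 and -0.09, and their libraries overlapped. *ntrk2a* was at 0.25 ± 0.128 in *psap* KO and at 0.00 ± 0.089 in WT brains, so that relative to neuronal genes it was higher in *psap* KO. *ngfra* and *ngfrb* were higher by 0.76 and 1.49, again without overlap. With other marker lists the Trk genes shifted, while *bdnf* stayed lower and the p75 genes higher. Against the 5 glutamatergic genes *bdnf* was lower by 0.77 and against the 6 GABAergic genes by 0.44, without overlap in either case. *ntrk2a* was higher by 0.04 against the glutamatergic genes, with overlap, and by 0.36 against the GABAergic genes, without. *ntrk3b* was lower by 0.31 against the glutamatergic genes, without overlap. These relative levels are given as a description with no test.

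**Figure D3:**
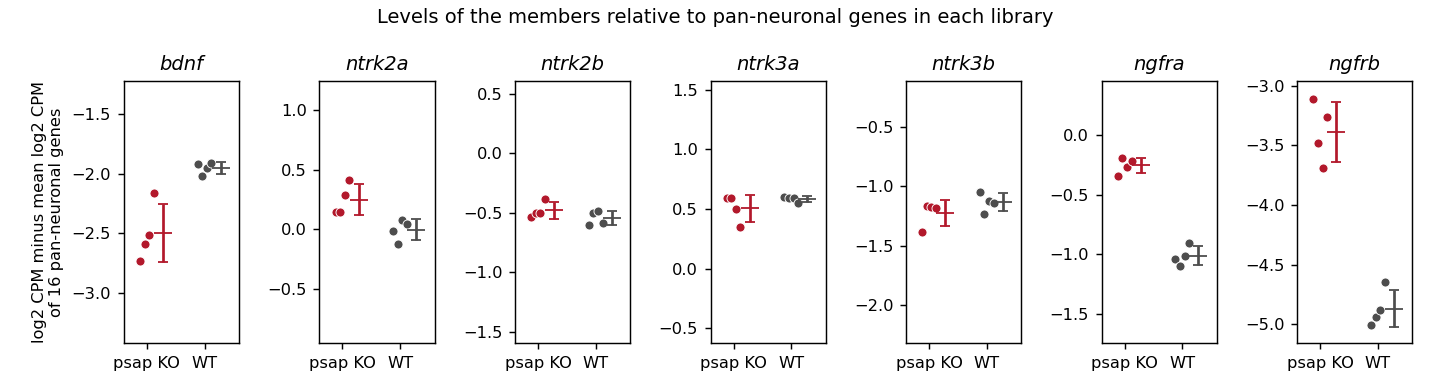
Log2 CPM of each gene minus the mean log2 CPM of 16 pan-neuronal genes in the same library, *psap* KO left of WT; points are replicates 1 to 4, bars are the mean ± SD, and each axis spans the same number of log2 units. *bdnf* stays below WT, *ntrk2b*, *ntrk3a* and *ntrk3b* overlap, and *ntrk2a*, *ngfra* and *ngfrb* lie above WT.

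Markers of other cell types moved in both directions in the libraries in which *ngfra* and *ngfrb* rose. The counts below stand beside 22.3% higher and 18.5% lower among all genes tested. Of 10 tested genes of radial astroglia, the glia that line the fish brain ventricles, 7 were higher and 1 was lower, and their summed level was 4647 to 5605 CPM in *psap* KO and 3342 to 3914 CPM in WT brains. Of 10 genes of endothelium and mural cells, 5 were higher. The mural cell receptor gene *pdgfrb* had a log2 fold change of 0.93, while the other mural genes *notch3*, *acta2* and *tagln* had 0.01, -0.25 and -0.45 and did not pass, and the sum of the 10 genes was 524 to 555.5 CPM in *psap* KO and 395 to 417.5 CPM in WT brains. The 11 tested genes of microglia and macrophages all rose, and their sum was 1687 to 1943 CPM in *psap* KO and 191 to 260.2 CPM in WT brains. Of 12 genes of the oligodendrocyte lineage 6 were higher and 1, the myelin gene *mbpa*, was lower. The sum of the 12 genes was 2596 to 4724 CPM in *psap* KO and 7361 to 9205 CPM in WT brains. *mbpa* made up most of the WT sum, at a mean of 6323 CPM in WT and 1293 CPM in *psap* KO brains. The lower sum thus mainly reflects this gene. In the oligodendrocyte list *olig2*, a transcription factor of the lineage, had a log2 fold change of 0.57 and *sox10*, another, had 0.49. *olig1*, also a transcription factor of the lineage, had -0.14 and did not pass. Of 6 genes of meninges and fibroblasts 2 were higher and 3, all collagen genes, were lower, with a sum of 101 to 126 CPM in *psap* KO and 118 to 172 CPM in WT brains. *pdgfra* is in both this list and the oligodendrocyte list and counts as higher in each. The 7 erythrocyte genes all fell, with a sum of 110 to 187 CPM in *psap* KO and 266 to 502 CPM in WT brains, and the 4 tested lymphocyte genes all rose, with a sum of 11.6 to 21.6 CPM in *psap* KO and 3.31 to 4.80 CPM in WT brains. None of the tested markers of these lists was at 0 in any library. The part of these cell types in the levels of *ngfra* and *ngfrb* was not tested.

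Other genes of the pathway were read from 6 lists by role, which held 72 symbols. Of these, 54 genes were tested, and 17 were lower (31.5%, against 18.5% of all genes), 8 were higher (14.8%, against 22.3% of all genes) and 29 did not pass, with a median log2 fold change of -0.10 over the lists and 0.02 over all genes. *ngfb*, a nerve growth factor gene, was too low to test, with 27 counts over the *psap* KO libraries and 47 over the WT libraries.

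Genes that act on pro-neurotrophins changed in both directions. *sort1a*, which encodes sortilin, the co-receptor of p75 for precursors and a sorting receptor that also carries prosaposin in mammals, was at 121 ± 12.8 CPM in *psap* KO and 89.9 ± 4.15 CPM in WT brains (SD, n=4 each), or 0.43 on the log2 scale (adjusted p = 0.00087). Its paralog *sort1b* had a log2 fold change of 0.17 and did not pass (adjusted p = 0.0614), but passed with the replicate number as a block (0.17, adjusted p = 0.0323). The sortilin family genes *sorcs2* and *sorcs3b* were lower, at -0.26 and -0.34. Of 10 genes of processing and release, 4 were lower (40%, against 18.5% of all genes) and 1 was higher (10%, against 22.3%). This list of 10 genes is too small to be set apart. The higher gene was *plat*, which encodes tissue plasminogen activator. It was at 17.2 ± 2.12 CPM in *psap* KO and 9.48 ± 1.72 CPM in WT brains (log2 fold change 0.86, adjusted p = 0.000288). *cadps2*, which promotes release from dense-core vesicles and of Bdnf in mice, had -0.66, *cpe*, a sorting receptor and processing enzyme of the regulated secretory pathway, had -0.46, *furinb*, a protease that cleaves precursors, had -0.51 with libraries that overlapped, and the fourth was *htt*, the huntingtin gene, at -0.20. The paralog of *furinb*, *furina*, had -0.10 and did not pass (adjusted p = 0.25).

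Of 7 tested partners of p75, 3 fell (42.9%, against 18.5% of all genes), 2 rose (28.6%, against 22.3% of all genes) and 2 did not pass, and 7 genes are too few to set the list apart. Among those that fell, *rtn4r*, the Nogo receptor gene, had a log2 fold change of -0.56 (adjusted p = 4.2e-05), and its co-receptor genes *lingo1a* and *lingo1b* had -0.49 and -0.42. Among those that rose, *traf6*, a signaling adaptor, was at 12.9 ± 1.40 CPM in *psap* KO and 6.46 ± 0.679 CPM in WT brains (log2 fold change 0.99, adjusted p = 4.8e-05), and *arhgdia* had 0.48. *tnfrsf19*, a receptor, and *ripk2*, a kinase, had -0.06 and -0.08 and did not pass.

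Of 23 tested adaptors and effectors of Trk signaling, 16 did not pass, while 4 rose (*plcg2*, *gab1*, *gab2* and *sh2b3*) and 3 fell (*ptpn11b*, *frs3* and *kidins220b*). Called genes were thus 17.4% higher and 13.0% lower, near the 22.3% and 18.5% over all genes. *plcg1*, the phospholipase that binds activated Trk receptors, was at 129 ± 2.81 CPM in *psap* KO and 130.3 ± 6.12 CPM in WT brains (SD, n=4 each; log2 fold change -0.01, adjusted p = 0.888). *plcg2*, its paralog in cells of the blood lineage and microglia, had a log2 fold change of 1.18 (adjusted p = 5.2e-06). All microglia genes tested rose too, and the part of microglia in the level of *plcg2* was not tested. The docking protein genes *gab1* and *gab2* had 0.43 and 0.61, and *ptpn11b*, which encodes the phosphatase Shp2, had -0.48. Its paralog *ptpn11a* had 0.17 and did not pass (adjusted p = 0.0746).

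Of 9 genes whose products act on Bdnf transcription in mammals, 5 fell (55.6%, against 18.5% of all genes) and 4 did not pass. This list of 9 genes is too small to be set apart. *npas4a*, an activity-regulated transcription factor of neurons, fell furthest, at 22.6 to 35.3 CPM in *psap* KO and 89.1 to 149.8 CPM in WT brains, which is -2.14 on the log2 scale (SE 0.194, adjusted p = 2.9e-05). *mef2ca* and *mef2d*, activity-responsive factors, had -0.50 and -0.34, and *creb1b* had -0.27. *creb1a* had -0.04 and did not pass.

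**Figure D4:**
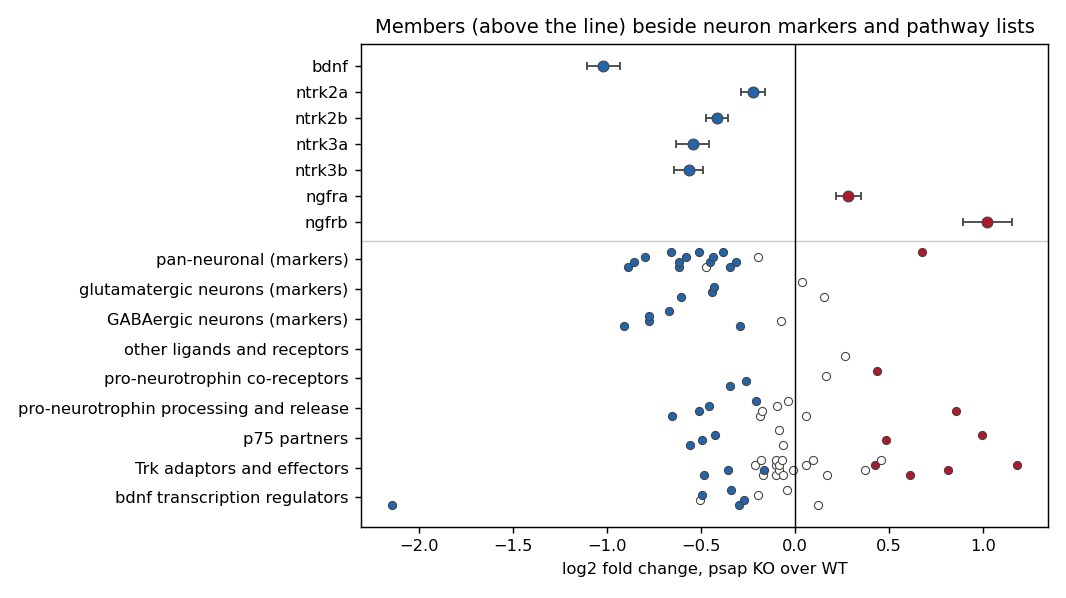
Fold change (log2, *psap* KO over WT) for the 7 genes (above the line, bars are ± standard error) and for each tested gene of the neuron marker lists and the pathway lists. Filled points passed an adjusted p of 0.05, blue lower and red higher in *psap* KO, and open points did not pass; *bdnf* lies left of every neuron marker, at -1.02, and the lowest point of all is *npas4a* at -2.14.

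The genes whose profile was most like each member over the 8 libraries were found by the root-mean-square difference of log2 CPM, each gene centred on its own mean, among 14329 genes. For *bdnf* these were *cort* (cortistatin, a neuropeptide) at 0.0657, *olfm2b* at 0.0713 and *plcl1* at 0.0836. For *ntrk2b* they were *TENM2*, a teneurin, at 0.0204, *inpp5jb* at 0.0289 and *ulk1b*, an autophagy kinase gene, at 0.0305. *ntrk3a* had nearest neighbours that encode neuronal surface proteins, *cdh24a* (a cadherin) at 0.0174, *nrxn3b* (a neurexin) at 0.0273 and *adgrl3.1* (a latrophilin) at 0.0314, and for *ntrk3b* they were *lhfpl4a* at 0.0451, *pde1a* at 0.0541 and *plppr4a* at 0.0576. For *ntrk2a* the nearest were *atp6v0cb*, *iars2* and *nt5c2a* at 0.0242 to 0.0274. For *ngfra* they were *prmt5*, *gstr* and *vps25* at 0.0543 to 0.061, and *ngfrb* had the loosest matches of the 7 genes, *mpp1*, *MDFI* and *ccdc103* at 0.0884 to 0.0997. With 8 libraries in 2 genotypes this likeness rests largely on the fold change itself.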

How the data were processed

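RNA from 8 pools of 3 brains was sequenced as stranded, ribosome-depleted libraries. Per the labels and methods, the authors removed optical duplicates, trimmed with cutadapt 1.16, aligned with STAR 2.6.1b, made the deposited raw counts per gene with featureCounts 1.6.3 (strand setting not given in the sources used here) and ran DESeq2 1.22.2; FastQC, Picard and MultiQC served for quality checks. The authors' fold changes, p-values, normalized counts and regularized logarithms were not used here. Other columns of the deposited sheets gave only symbols and positions.

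The raw counts were analysed in R 4.3.3 with edgeR 4.0.16: filterByExpr by genotype, which left out 1731 genes, TMM scaling, robust quasi-likelihood fit and test, Benjamini-Hochberg adjustment over 21140 genes with a threshold of 0.05. Standard errors are the log2 fold change over the square root of F. Levels are TMM-scaled CPM, log2 CPM used a prior count of 2, and ratios used 0.5 added to each count and an exact permutation test over libraries. Named genes were the 8 symbols, up to 4 per pathway list with the smallest p, and the 3 most alike in pattern to each member. Further genes (*htt*, *furina*, *arhgdia*, *tnfrsf19*, *ripk2*, *plcg1*, *ptpn11a*, *creb1a*, *creb1b*, *sh2b3*, *frs3*, *kidins220b* and markers) were named after their values were seen. The members and lists were chosen with earlier results of these data known, and the levels relative to neuron markers were added after the design was fixed. Alternatives were RLE and upper-quartile scaling, no filter, a mean count of at least 50, DESeq2 1.42.0, limma-voom (limma 3.58.1), the replicate number as a block, and leaving out each library. The deviations of same-numbered libraries from their genotype means correlated at 0.125 to 0.248 over genes in all 4 pairs. Those of other pairs correlated at -0.165 to 0.102. The numbers were treated as pairs, but only in the replicate block and in a paired form of the ratio test. The labels do not state that same-numbered libraries are matched. Some pairs of unlike number came close, such as *psap* KO replicate 1 with WT replicate 2 at 0.102 and *psap* KO replicate 2 with WT replicate 1 at 0.0855. The main fit and the exact permutation test over libraries did not use the pairs. The study's methods also state that KO and WT samples alternated in processing. Replicates differed by more than counting noise (chi-square per degree of freedom 5.27 to 30.1). The highest values were those of *psap* KO replicate 4, at 30.1, 22.3 and 17.7 against *psap* KO replicates 1, 2 and 3. The other *psap* KO pairs were at 7.22 to 9.13 and the WT pairs at 5.27 to 14.3. Some genes of the pathway lists are counted but not reported by name here.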

Additional observations from a re-analysis of the deposited data

How the results depend on the processing

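The counts of 2 genes higher and 5 lower among the 7 held under RLE and upper-quartile scaling, no filter, a mean count of at least 50, DESeq2, limma-voom and the replicate block, and when each library was left out, except that 4 were lower without WT replicate 3, where *ntrk2a* did not pass (adjusted p = 0.055). With 1 library left out, the log2 fold change ranged from -1.09 to -0.95 for *bdnf*, -0.26 to -0.19 for *ntrk2a*, -0.44 to -0.39 for *ntrk2b*, -0.59 to -0.46 for *ntrk3a*, -0.61 to -0.52 for *ntrk3b*, 0.24 to 0.31 for *ngfra* and 0.92 to 1.11 for *ngfrb*. With the replicate block the values were -1.02, -0.22, -0.41, -0.55, -0.57, 0.28 and 1.01 in the same order, and among these genes and the up to 4 genes with the smallest p in each pathway list the block changed only the call of *sort1b*, which also passed with upper-quartile scaling and with a mean count of at least 50. Over the whole pathway lists the block gave 10 higher and 18 lower, against 8 and 17 without it, and 7 to 10 genes were higher and 14 to 19 lower over all alternatives.

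For the ratios, leaving out 1 library gave differences of -0.83 to -0.61 for *ngfra* to *ngfrb*, 0.14 to 0.22 for *ntrk2a* to *ntrk2b*, -0.69 to -0.55 for *bdnf* to *ntrk2b* and -0.0671 to 0.0809 for *ntrk3a* to *ntrk3b*, which was -0.0671 without *psap* KO replicate 1 and -0.009 without WT replicate 1. The lost calls are of adjusted p, which for each ratio depends also on the p of the other ratios. The p before adjustment is not given for these settings. In pairs by replicate number the mean differences are the same by construction, at -0.73, 0.19, -0.61 and 0.01. The smallest p that 4 pairs allow is 0.125, so the paired test could not pass. The gene *ngfrb* has the fewest counts and the widest standard error of the group.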
